A study of Mus musculus with 8 samples.

Results

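The histone genes were examined in a catalogue of transcription start sites from mouse facial skin. Genes were members when their symbol began with Hist1h, Hist2h, Hist3h or Hist4h, or with H2af or H3f3. Of the 16094 genes with at least 1 start site cluster, 76 met that rule. They divided into 67 Hist genes, which belong to the replication-dependent kind, and 9 H2af or H3f3 genes, which belong to the replication-independent kind. The catalogue came from cap analysis of gene expression (CAGE), which reads the capped 5′ end of each RNA molecule, and each of its clusters is a stretch of neighbouring start positions. Histone genes held 217 distinct clusters of the 46376 that carried a gene symbol.

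The libraries came from 8 facial skins of C57BL/6 mice at postnatal day 28. Lesional skin was taken from 4 Cre-positive mice homozygous for a floxed Ikk2 allele, a genotype spelled Nectin-cre(+);Ikk2FL/FL in the sample labels and with Nestin-cre in the series text. Non-lesional skin was taken from 4 control mice whose genotype label is only Control, so lesion and genotype change together. Ikk2 encodes a kinase that activates NF-κB. The names of the 8 value columns of the catalogue match no sample label. They were therefore not used, and no expression level, no sequencing depth and no difference between lesional and control skin is given for any histone gene. The values below are positions and spans of clusters, shared by all 8 samples, which carry no error between replicates and were not tested.

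Histones package DNA into nucleosomes: H2A, H2B, H3 and H4 form the core, and H1 binds the linker DNA between cores. Replication-dependent genes are transcribed mainly in S phase, lie in clusters in the genome, lack introns, and make mRNAs that mostly end in a stem-loop instead of a poly(A) tail. Replication-independent genes are transcribed throughout the cell cycle, make polyadenylated mRNAs and encode variants that replace the canonical histones in nucleosomes. Skin holds both dividing and differentiated cells, so transcripts of both kinds can occur in it.

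Promoters of 5 replication-dependent genes are shown first, 1 for each histone type, because the motifs in them differ by type. Each window runs from 250 bases before to 50 bases after the RefSeq start, and its coordinates are those of RefSeq build GRCm38.p6. The H2B gene Hist1h2bj lies at chr13:22042948-22043247 on the plus strand, and its window spans the whole interval to the RefSeq start of the H2A gene Hist1h2ag, 249 bases away on the other strand. The H2A gene Hist2h2ac lies at chr3:96220831-96221130 on the minus strand. The H4 gene Hist1h4d lies at chr13:23581318-23581617 on the plus strand, the H1 gene Hist1h1c at chr13:23738557-23738856 on the plus strand, and the H3 gene Hist1h3i at chr13:21783348-21783647 on the minus strand. Capitals mark matches to 5 motifs on either strand, so a match on the opposite strand appears as its reverse complement. The TATA element was searched for with the letters TATAAA. The CCAAT box was searched for by the letters of its name. The octamer known from H2B promoters was searched for as ATTTGCAT. The H1 box was searched for as AAACACA, and the GC box with the letters GGGCGG. The printed windows are examples and not all are typical of their type. Hist1h4d holds CCAAT, which only 3 of 12 H4 windows held. It is also the 1 of 12 H4 windows with TATAAA in the place before the start that is counted below. Hist1h1c lacks TATAAA, which 4 of 6 H1 windows held.
Hist1h2bj: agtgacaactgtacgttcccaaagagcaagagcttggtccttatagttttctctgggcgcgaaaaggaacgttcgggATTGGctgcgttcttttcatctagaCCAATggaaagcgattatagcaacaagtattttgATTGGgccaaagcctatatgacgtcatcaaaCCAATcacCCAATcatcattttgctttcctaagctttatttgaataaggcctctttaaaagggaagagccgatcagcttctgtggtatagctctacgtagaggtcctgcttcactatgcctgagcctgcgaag
Hist2h2ac: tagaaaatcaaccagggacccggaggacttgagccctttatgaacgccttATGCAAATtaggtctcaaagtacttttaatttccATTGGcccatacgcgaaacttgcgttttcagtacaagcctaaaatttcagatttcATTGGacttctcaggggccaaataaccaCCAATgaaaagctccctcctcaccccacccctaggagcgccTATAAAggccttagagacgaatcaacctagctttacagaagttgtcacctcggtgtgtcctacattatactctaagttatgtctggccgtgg
Hist1h4d: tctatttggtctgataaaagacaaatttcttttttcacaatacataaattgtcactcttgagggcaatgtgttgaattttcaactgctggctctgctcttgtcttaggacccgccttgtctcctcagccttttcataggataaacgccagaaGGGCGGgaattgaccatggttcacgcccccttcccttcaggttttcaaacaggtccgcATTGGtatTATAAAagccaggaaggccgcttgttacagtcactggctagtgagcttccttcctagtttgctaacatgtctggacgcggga
Hist1h1c: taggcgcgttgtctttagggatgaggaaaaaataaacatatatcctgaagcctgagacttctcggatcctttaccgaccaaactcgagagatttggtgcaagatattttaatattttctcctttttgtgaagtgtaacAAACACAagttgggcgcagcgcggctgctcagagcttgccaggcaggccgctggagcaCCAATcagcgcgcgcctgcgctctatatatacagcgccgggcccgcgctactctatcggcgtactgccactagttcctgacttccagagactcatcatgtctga
Hist1h3i: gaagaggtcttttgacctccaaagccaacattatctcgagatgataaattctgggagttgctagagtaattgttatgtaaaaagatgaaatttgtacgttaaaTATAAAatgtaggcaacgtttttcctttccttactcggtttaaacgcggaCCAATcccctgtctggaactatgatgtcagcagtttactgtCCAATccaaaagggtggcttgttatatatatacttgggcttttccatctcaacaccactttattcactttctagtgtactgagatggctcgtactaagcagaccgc

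Promoters of 3 replication-independent genes follow for contrast. H2afz, which encodes the variant H2A.Z, lies at chr3:137864237-137864536 on the plus strand. H3f3a and H3f3b encode the same replacement H3 protein and lie at chr1:180813556-180813855 and chr11:116024455-116024754, both on the minus strand. H3f3a carries 6 GC box matches, some of which overlap each other, and no TATAAA. H3f3b carries TATAAA 27 bases before its start, 4 CCAAT boxes on its own strand and an octamer on the opposite strand, motifs that the windows of replication-dependent genes also hold.
H2afz: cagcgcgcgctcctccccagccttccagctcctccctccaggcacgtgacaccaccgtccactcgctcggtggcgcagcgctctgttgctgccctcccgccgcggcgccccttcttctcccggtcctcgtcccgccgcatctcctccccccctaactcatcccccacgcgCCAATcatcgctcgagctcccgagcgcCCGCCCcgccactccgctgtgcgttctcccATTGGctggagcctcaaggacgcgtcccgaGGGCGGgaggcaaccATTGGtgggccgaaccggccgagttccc
H3f3a: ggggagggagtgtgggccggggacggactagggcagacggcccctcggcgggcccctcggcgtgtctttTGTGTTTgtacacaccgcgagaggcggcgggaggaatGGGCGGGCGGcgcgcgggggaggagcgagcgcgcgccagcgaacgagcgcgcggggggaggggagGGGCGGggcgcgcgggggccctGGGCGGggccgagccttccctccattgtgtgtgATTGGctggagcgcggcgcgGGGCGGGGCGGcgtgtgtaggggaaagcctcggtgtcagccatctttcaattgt
H3f3b: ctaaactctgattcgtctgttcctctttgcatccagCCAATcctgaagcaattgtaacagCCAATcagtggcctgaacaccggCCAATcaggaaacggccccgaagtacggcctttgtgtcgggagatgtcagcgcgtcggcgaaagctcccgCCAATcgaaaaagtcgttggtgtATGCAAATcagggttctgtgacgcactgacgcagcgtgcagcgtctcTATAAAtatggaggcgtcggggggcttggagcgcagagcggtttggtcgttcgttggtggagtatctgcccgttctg

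The histone stem-loop near the 3′ end of the mRNA is shown because it defines the replication-dependent kind and because its letters differed between H4 and the other types. The sequences are written as DNA on the strand of the gene, from GENCODE M21 transcripts, with the 16 letters of the loop and its 6-pair stem in capitals and 5 bases on each side in lower case. On GRCm38 they lie in the 3′ UTRs of Hist1h1c (chr13:23739507-23739532, plus strand), Hist1h2ag (chr13:22042478-22042503, minus strand), Hist2h2ac (chr3:96220413-96220438, minus strand), Hist1h2bb (chr13:23747198-23747223, plus strand), Hist1h4d (chr13:23581945-23581970, plus strand), Hist1h4b (chr13:23757361-23757386, plus strand), Hist2h4 (chr3:96262934-96262959, minus strand) and H2afx (chr9:44335235-44335260, plus strand).
Hist1h1c: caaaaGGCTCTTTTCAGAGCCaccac
Hist1h2ag: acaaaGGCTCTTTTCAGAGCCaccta
Hist2h2ac: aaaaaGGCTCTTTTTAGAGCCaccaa
Hist1h2bb: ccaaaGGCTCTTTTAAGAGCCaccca
Hist1h4d: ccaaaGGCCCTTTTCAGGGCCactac
Hist1h4b: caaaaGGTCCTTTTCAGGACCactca
Hist2h4: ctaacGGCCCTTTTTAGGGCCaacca
H2afx: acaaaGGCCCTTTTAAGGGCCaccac

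Nearly all annotated protein-coding histone genes had a cluster in facial skin. GENCODE M21 lists 87 symbols that meet the rule, and 11 of them had no cluster. Among the protein-coding ones, 73 of 78 (93.6%) had a cluster, against 12778 of 21922 (58.3%) of all protein-coding symbols. The 5 protein-coding genes without a cluster were H2afb1, H2afb2, H2afb3, Hist1h2aa and Hist1h2ba, whose products are known from testis. Of the members, 3 are annotated as pseudogenes in GENCODE, namely Hist1h2aj, Hist3h2bb-ps and H3f3c. The table was matched by symbol, so a gene listed under another name counts as having no cluster.

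The widest clusters of replication-dependent genes were short. Span was taken as the end position of a cluster less its start position. The median span of the widest cluster of a gene was 41 bp over the 67 replication-dependent genes (quartiles 12.5 and 68 bp), 133 bp over the 9 replication-independent genes (quartiles 93 and 188 bp) and 110 bp over the 16018 other genes (quartiles 67 and 159 bp). A widest cluster of at least 100 bp was present in 13 replication-dependent genes (19.4%), in 6 replication-independent genes (66.7%) and in 8998 other genes (56.2%). The difference lay mostly in short but not minimal spans, of 10 to 49 bp. Of the replication-dependent genes, 15 (22.4%) had a widest cluster of 10 to 24 bp, against no replication-independent gene and 3.85% of other genes. Another 14 (20.9%) had one of 25 to 49 bp, against no replication-independent gene and 5.88% of other genes. A widest cluster under 10 bp was found in 10 replication-dependent genes (14.9%), in 1 replication-independent gene (11.1%) and in 8.77% of other genes. Whether span moves with the number of tags in a cluster was not tested.

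**Figure D1:**
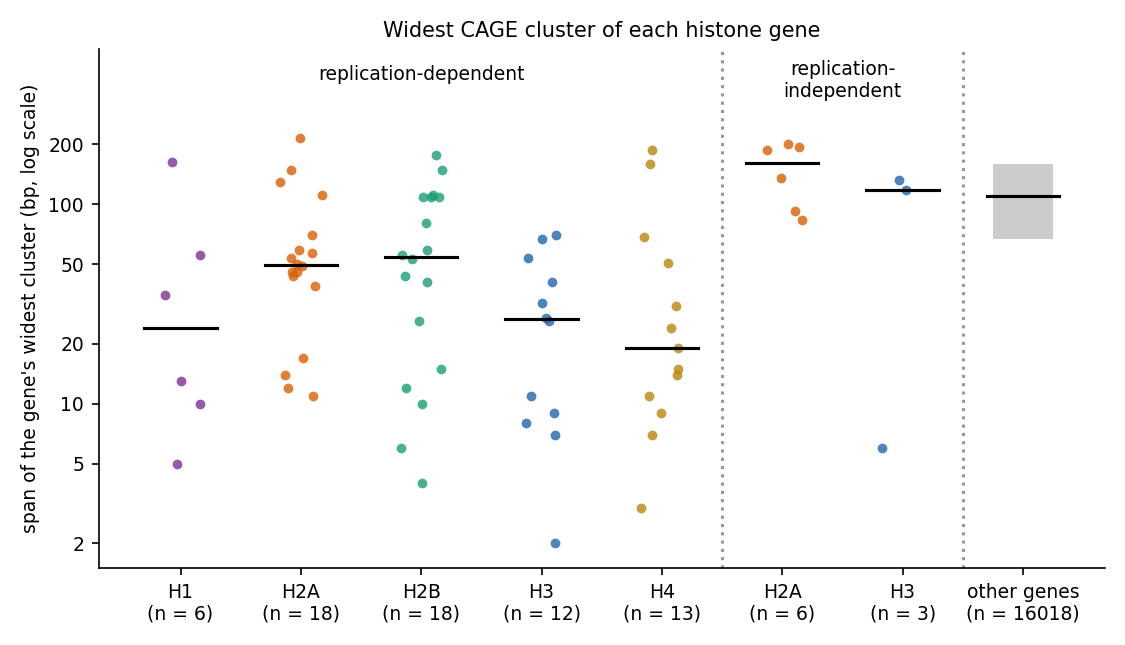
Span of the widest cluster of each histone gene in bp on a log scale, by histone type and kind, with 1 point per gene and a bar at the median; the grey box for the 16018 other genes spans the quartiles, 67 and 159 bp. Replication-dependent medians lie between 19 bp (H4) and 54.5 bp (H2B), and 8 of the 9 replication-independent genes lie at 84 bp or above.

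Taken over all clusters, most of which are very short, the kinds differed less. The median span was 4 bp in replication-dependent genes (174 clusters), 5 bp in replication-independent genes (43 clusters) and 11 bp in other genes (46176 clusters). Clusters under 10 bp made up 63.2% of replication-dependent, 62.8% of replication-independent and 48.3% of other clusters. Clusters of at least 100 bp made up 7.47% of replication-dependent, 14.0% of replication-independent and 21.1% of other clusters. Over all their clusters the 2 kinds of histone gene were close in median span and in the share under 10 bp. They were apart in the share of at least 100 bp and in the widest cluster.

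The histone types were not alike. H3 genes had a median widest span of 26.5 bp and no cluster of 100 bp or more in 12 genes. H4 genes had the lowest median, 19 bp over 13 genes, but 2 of them exceeded 100 bp. These are the proteins of the central tetramer of the nucleosome. H2A and H2B genes, whose proteins pair as dimers, had medians of 49.5 and 54.5 bp over 18 genes each. Of these, 4 and 6 genes reached 100 bp or more. The 6 H2B genes include Hist1h2be, whose 109 bp cluster is also given to Hist1h1e and Gm11398. No H2A gene had a widest cluster under 10 bp, against 4 H3 genes. The ranges of all 5 types overlapped.

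The 6 linker histone H1 genes ranged widely, with a median of 24 bp. Hist1h1e had 11 clusters, the widest of 163 bp. Hist1h1d had 5 clusters and a widest span of 56 bp, and Hist1h1c had 5 clusters and 35 bp. All of these, like Hist1h1a and Hist1h1b, encode somatic linker histones. Hist1h1a reached 13 bp over 2 clusters, and Hist1h1b reached 10 bp in spite of 7 clusters. The lowest was Hist1h1t, the testis-specific linker histone, whose 2 clusters spanned 5 and 3 bp. Every H1 gene had more than 1 cluster, whereas 26 of the 67 replication-dependent genes (38.8%) had only 1.

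The widest clusters of the replication-dependent kind mostly belonged to genes outside the large Hist1 group. Hist2h2ac, an H2A gene, reached 216 bp, and Hist2h4, an H4 gene, 188 bp. The pseudogene Hist3h2bb-ps had 1 cluster of 177 bp and Hist4h4, an H4 gene, 1 of 160 bp. Hist1h1e, given above, and the tied Hist1h2bh and Hist2h2ab, an H2B and an H2A gene at 149 bp each, completed the widest, a set of 7 because of the tie. The median widest span was 56.5 bp over the 14 Hist2, Hist3 and Hist4 genes and 32 bp over the 53 Hist1 genes, with 6 and 7 genes at 100 bp or more.

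The other Hist2 genes lay well below 100 bp. Among the H2A genes, Hist2h2aa1 and Hist2h2aa2, near-identical copies, had 1 cluster each of 54 and 57 bp. Among the H2B genes, Hist2h2be had 1 cluster of 56 bp and Hist2h2bb 7 clusters of at most 26 bp. Among the H3 genes, Hist2h3c1 reached 54 bp, in a cluster that the catalogue also gives to Hist2h2aa1, Hist2h3b reached 9 bp over 4 clusters, and Hist2h3c2 had 1 cluster of 2 bp. In the Hist3 group the H2A gene Hist3h2a had 5 clusters, the widest of 112 bp, and the H2B gene Hist3h2ba had 2, the wider of 41 bp.

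All but 3 of the replication-independent genes exceeded 100 bp. H2afj, an H2A variant, had the widest cluster at 200 bp, and H2afz followed at 194 bp. H2afy, which encodes macroH2A, reached 188 bp, and H2afy2, its paralogue, 136 bp. H3f3a reached 133 bp and H3f3b 118 bp. Below 100 bp were H2afv, a second H2A.Z gene, at 93 bp, and H2afx, whose product is phosphorylated at DNA breaks, at 84 bp. H3f3c, the GENCODE pseudogene, had a single cluster of 6 bp. Without it the median of the remaining 8 genes was 134.5 bp.

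Replication-independent genes also tended to hold more clusters. The median was 4 clusters per gene in the replication-independent kind, 2 in the replication-dependent kind and 2 in other genes. Over clusters of at least 10 bp, in genes that have one, it was 2 in the replication-independent kind, 1 in the replication-dependent kind and 1 in other genes. H3f3b had 11 clusters, H2afx 8, H2afj and H2afz 7 each and H3f3a 4. H2afy and H2afy2 had 2 each, and H2afv and H3f3c 1 each. In the replication-dependent kind the highest numbers were 12 in Hist1h2ak, an H2A gene, 11 in Hist1h1e, 9 in Hist1h2ac, also an H2A gene, and 7 in both Hist1h1b and Hist2h2bb. Of the 12 clusters of Hist1h2ak, 11 were narrower than 10 bp, and the widest spanned 59 bp.

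Further clusters, those beside the widest one, lay closest to it in replication-dependent genes. Replication-dependent genes held 110 of them, of which 84 (76.4%) lay downstream of the widest cluster and 73 (66.4%) within 100 bp of it, at a median distance of 57.5 bp. Replication-independent genes held 34, of which 17 lay downstream and 7 (20.6%) within 100 bp, at a median distance of 368 bp. In other genes 60.3% lay downstream and 28.4% within 100 bp, at a median of 249 bp. H3f3b supplied 10 of the 34 further clusters of the replication-independent kind, and without it 17 of 24 (70.8%) lay downstream and 7 (29.2%) within 100 bp, at a median of 219.5 bp. The difference in direction between the kinds thus rested largely on H3f3b. Most of these clusters were narrower than 10 bp, at 91.8% in the replication-dependent kind, 76.5% in the replication-independent kind and 68.7% in other genes. The distances were not adjusted for transcript length, and whether they follow it was not tested.

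Single replication-independent genes went opposite ways. All 10 further clusters of H3f3b lay upstream of its widest cluster, the farthest at 4474 bp, and the widest of them spanned 67 bp. All 3 of H3f3a also lay upstream, at 271 to 368 bp. All 7 of H2afx lay downstream, at 44 to 857 bp, and of the 6 of H2afz, 1 of 38 bp lay 159 bp upstream and 5 lay downstream. The widest cluster is taken here by span alone and need not be the most used start site.

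**Figure D2:**
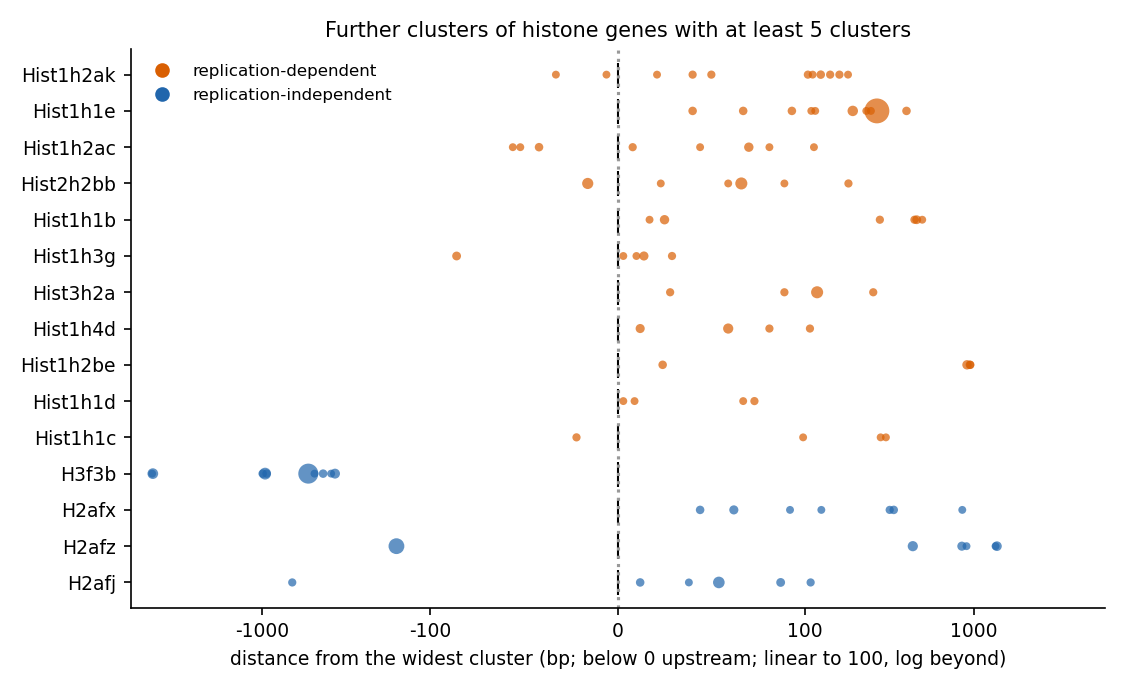
Distance of each further cluster from the widest cluster of its gene in bp, below 0 upstream and above 0 downstream, linear to 100 bp and logarithmic beyond, for the 15 histone genes with at least 5 clusters; point size grows with span. Most points of replication-dependent genes lie downstream of the widest cluster, whereas those of H3f3b lie 368 to 4474 bp upstream.

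The replication-dependent genes lay in 4 places, given here as the mm9 coordinates of their widest clusters in the deposited table, whose counting base is not stated. The Hist1 group held 53 genes at chr13:21808014-23855541, a stretch of 2048 kb, with 28 on the plus and 25 on the minus strand. It fell into stretches of 19 genes in 118 kb, 5 genes in 7.64 kb and 29 genes in 233 kb. Gaps of 202 kb, from Hist1h2br to Hist1h2ah, and 1488 kb, from Hist1h2bj to Hist1h4h, divided them. The median gap between the widest clusters of neighbouring Hist1 genes was 2765 bp. The Hist2 group held 10 genes at chr3:96023702-96073672, the Hist3 group 3 genes at chr11:58762388-58768234, and Hist4h4 was the sole replication-dependent gene of its chromosome, at chr6:136752814-136752974. The 9 replication-independent genes were spread over 8 chromosomes, and 1 of them, H2afj, lay near a Hist gene, with its widest cluster 3759 bp from that of Hist4h4 and on the opposite strand.

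**Figure D3:**
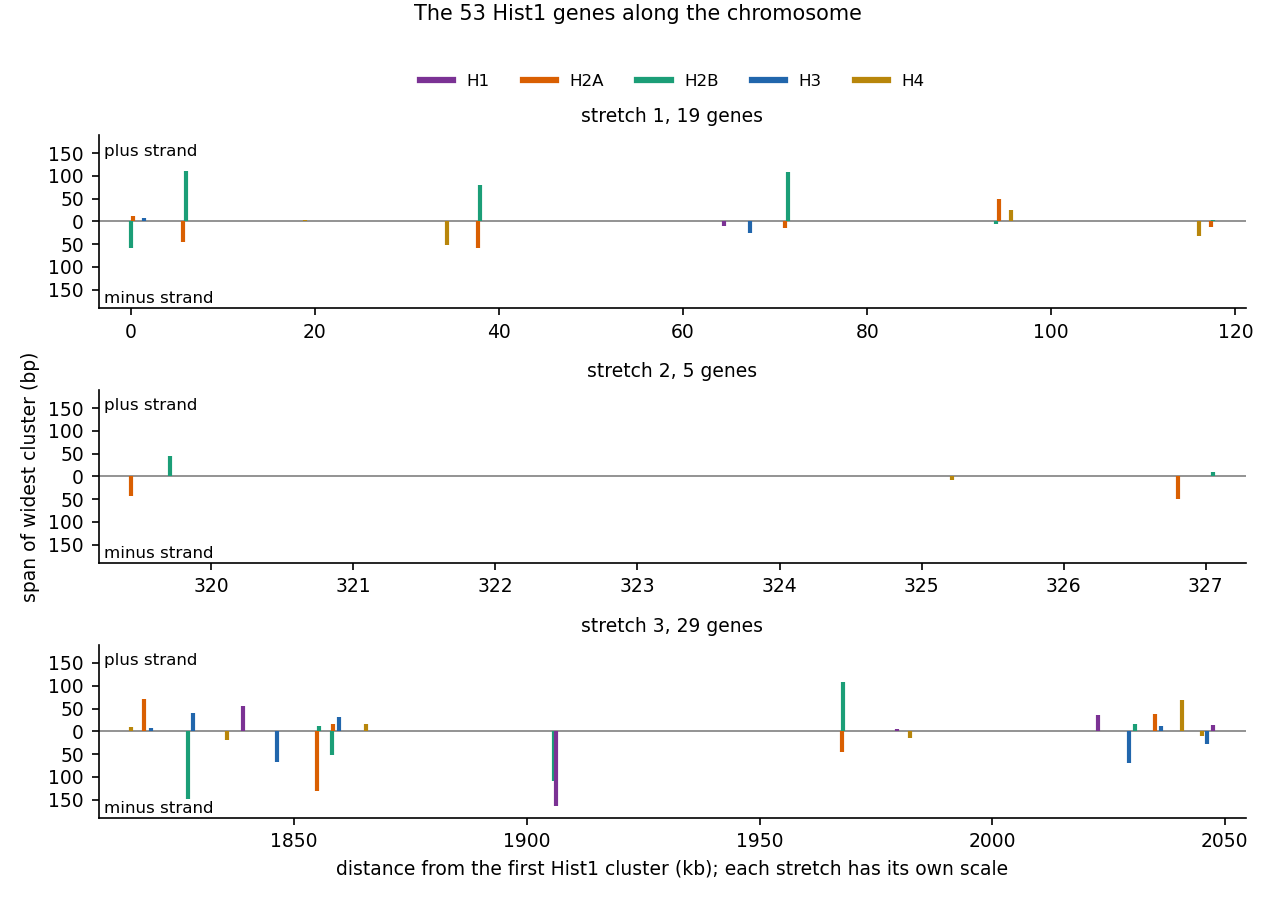
The 53 Hist1 genes along chromosome 13 in 3 stretches of 19, 5 and 29 genes, by distance from the first Hist1 cluster in kb, each stretch with its own scale. Bar height is the span of the widest cluster in bp, upward for plus and downward for minus strand genes, and colour is the histone type; bars of 100 bp or more, 7 of 53, are scattered over the first and the third stretch.

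H2A and H2B genes were often arranged head to head. A head-to-head pair was counted where the widest clusters of neighbouring genes lay on opposite strands, pointing away from each other, with at most 400 bp between them. Of the pairs found, 13 joined histone genes, and all 13 joined an H2A with an H2B gene. In 9 of them the H2B gene was on the plus strand and in 4 the H2A gene was. Head-to-head pairs, whatever the partner gene, took in 13 of 18 H2A genes and 13 of 18 H2B genes (72.2% each), 1 of 31 H1, H3 and H4 genes (3.23%), 1 of 9 replication-independent genes (11.1%) and 10.2% of other genes. The exceptions among histone genes were Hist1h4h, an H4 gene 115 bp from Gm11335, and H3f3a, 144 bp from Gm16067.

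The gap between the paired clusters was of similar length in most pairs. It ranged between 81 and 235 bp with a median of 203 bp, and 11 of the 13 gaps fell between 150 and 250 bp. In the 807 pairs without a histone gene the median was 94 bp (quartiles 39 and 200.5 bp), and 18.5% fell between 150 and 250 bp. The 2 short gaps were 81 bp between the pseudogene Hist3h2bb-ps and Hist3h2a, and 136 bp between Hist2h2ac and Hist2h2be. The 11 others were all in the Hist1 group, the closest being Hist1h2ak and Hist1h2bn at 166 bp and the most distant Hist1h2ap and Hist1h2br at 235 bp. The pair Hist1h2ag and Hist1h2bj, whose shared promoter region is printed above, had clusters of 49 and 10 bp at a gap of 215 bp. Partners were often unequal in span, as in Hist1h2ae and Hist1h2bg with 130 and 12 bp.

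**Figure D4:**
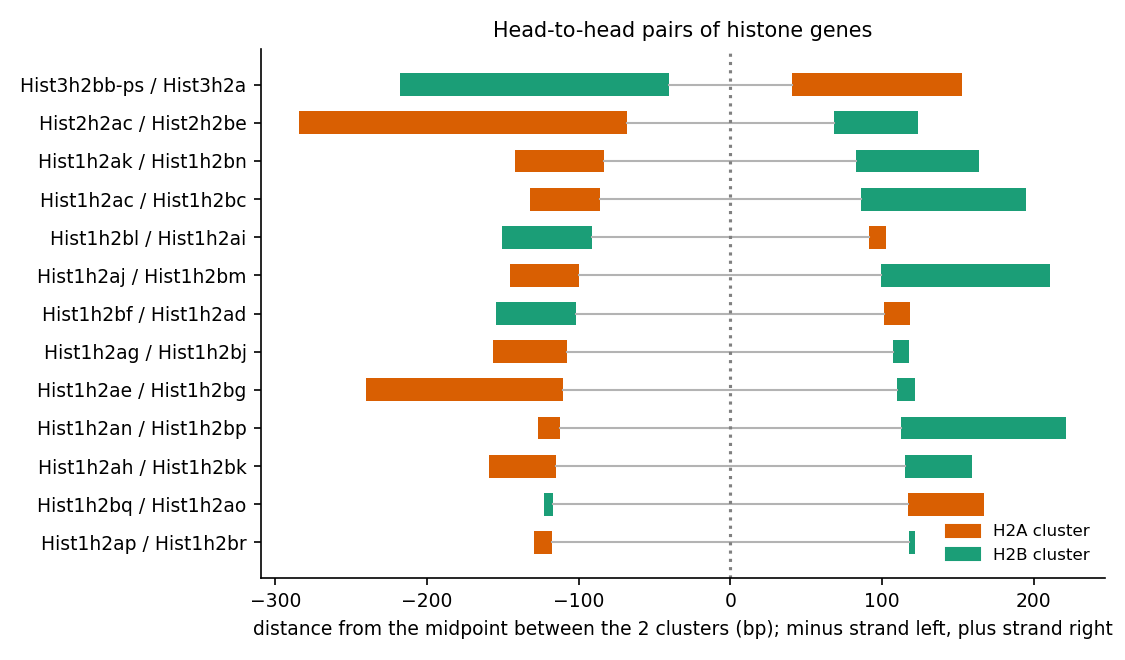
The 13 head-to-head pairs of histone genes, each centred on the midpoint between its 2 widest clusters, in bp, with the minus strand gene on the left and the plus strand gene on the right; bars are the clusters and grey lines the gaps. Gaps grow downward, at 81 bp in the top row and 235 bp in the bottom row, and every pair joins 1 H2A and 1 H2B gene.

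Counting any opposite-strand cluster within 400 bp upstream, with or without a gene symbol, extended the pattern for H2A. Such a cluster was present at 17 of 18 H2A genes (94.4%), 14 of 18 H2B genes (77.8%), 2 of 12 H3 genes, 1 of 13 H4 genes and none of 6 H1 genes. It was present at 2 of 9 replication-independent genes (22.2%) and at 22.1% of other genes. At 3 H2A genes the opposite cluster carried no symbol, at 168 bp for Hist1h2af, 143 bp for Hist2h2aa1 and 165 bp for Hist2h2aa2. Hist1h2ab was the H2A gene without one. The opposite cluster of Hist2h2aa1 was also counted for the H3 gene Hist2h3c1, through the 54 bp cluster that both genes share.

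Motif content of the promoter windows differed by histone type. Windows were found for 67 of the 76 genes, under their current RefSeq symbols, with 60 windows for 59 replication-dependent and 8 for replication-independent genes. The genes without an entry were H2afx, Hist1h2aj, Hist1h2ap, Hist1h2bc, Hist1h3a, Hist1h3f, Hist2h2be, Hist2h4 and Hist3h2bb-ps. The 32783 other windows are all other promoters of the reference, whether or not their gene had a cluster, whereas every histone window belongs to a gene with one. In 1915 of the other windows the start codon was at the first base, against 0 histone windows. The shares in other windows, here and below, were not adjusted for either difference. CCAAT, on either strand, was found in 85.0% of replication-dependent windows, in 6 of 8 replication-independent windows and in 37.3% of other windows. All windows of H1, H2A, H2B and H3 genes held it, against 3 of 12 H4 windows. The octamer ATTTGCAT was found in 6 of 16 H2A and 6 of 16 H2B windows and in no H1, H3 or H4 window, and in 1 of 8 replication-independent and 1.7% of other windows. Windows of head-to-head partners overlap, so a match can count for both genes: the 12 matches of H2A and H2B genes lay at 10 distinct positions, 2 of them shared by partners, Hist1h2ae with Hist1h2bg and Hist1h2ah with Hist1h2bk. Of the 6 H2A genes with a match, 5 had a head-to-head H2B partner, and of the 6 H2B genes with a match, 3 had a head-to-head H2A partner. The octamer read on the strand of the gene in all 6 H2B genes and on the opposite strand in all 6 H2A genes. The H1 box AAACACA was found in 5 of 6 H1 windows, in 2 of the 54 windows of the other replication-dependent types, in 1 of 8 replication-independent windows and in 7.17% of other windows.

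GC content was lowest in the windows of replication-dependent genes. GGGCGG was found in 24 of 60 replication-dependent windows, in 5 of 8 replication-independent windows (62.5%) and in 35.6% of other windows, and among the replication-dependent types it was most frequent in H4 (9 of 12) and least in H2B (2 of 16). The median GC content was 45.3% in replication-dependent, 63.2% in replication-independent and 52.7% in other windows. The median ratio of observed to expected CpG was 0.75 in replication-dependent, 0.96 in replication-independent and 0.38 in other windows. A match is a description of the letters, and no binding was measured.

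**Figure D5:**
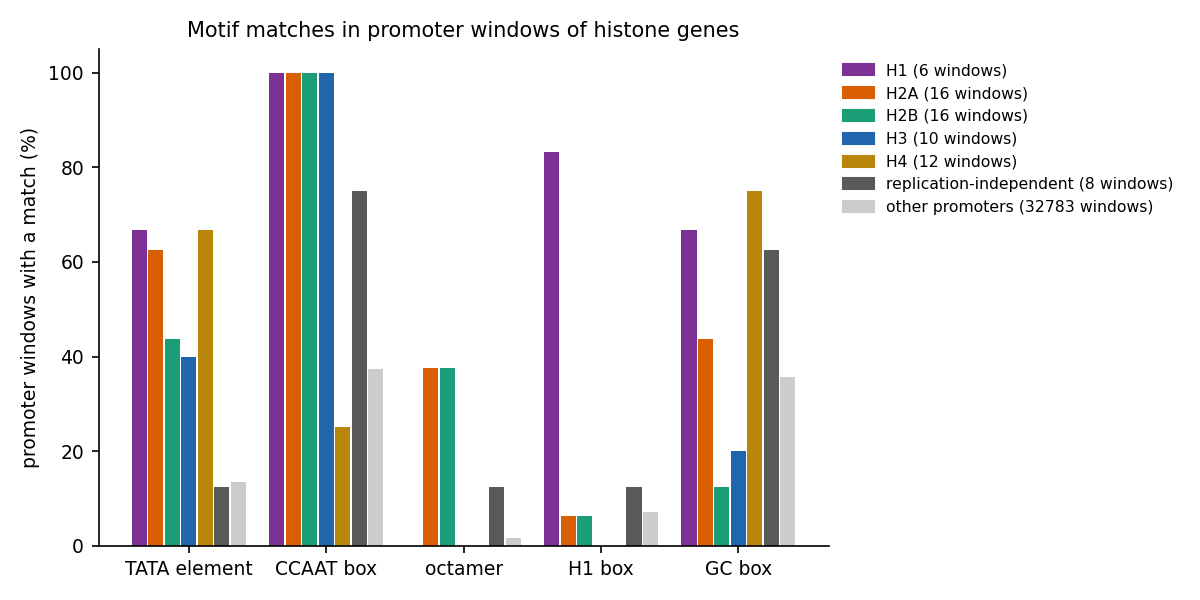
Share of promoter windows with a match to each motif on either strand, in percent, for the 5 replication-dependent types, the replication-independent genes and the 32783 other windows. The CCAAT box stands at 100% in H1, H2A, H2B and H3 and in 3 of 12 windows in H4, the octamer appears in H2A and H2B at 37.5%, and the H1 box reaches 83.3% in H1.

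The letters TATAAA were frequent in the windows of replication-dependent genes, and their place decided the count. TATAAA on either strand anywhere in the window was found in 55.0% of replication-dependent, 12.5% of replication-independent and 13.5% of other windows. These shares take in matches after the start, as in Hist1h2ad, and matches on the opposite strand only, as in Hist1h2ae. Windows of head-to-head partners overlap, so a match can count for both genes. On the strand of the gene and 40 to 20 bases before the start, TATAAA was found in 11 of 60 replication-dependent windows (18.3%). It was found there in 1 of 8 replication-independent windows, that of H3f3b, and in 1.96% of other windows. H1 genes held it there most often, in 4 of 6 windows. The exact letters miss variants, such as the tatatata in that place in the printed windows of Hist1h1c and Hist1h3i. Genes counted as without TATAAA can thus hold another form of the TATA element there. The widest cluster had a median span of 15 bp in the 11 replication-dependent genes with TATAAA in that place and 41.5 bp in the 48 without. The lower quartiles, 12 and 11.75 bp, and the shares at 100 bp or more, 2 of 11 (18.2%) and 8 of 48 (16.7%), were close. In other genes the medians were 66 bp in 262 genes with it and 117 bp in 10111 without. The widest cluster of H3f3b, 118 bp, was above both medians of replication-dependent genes, and its further clusters all lay upstream of it. Clusters were not placed on the windows. Whether a widest cluster lies at the RefSeq start of its window was thus not tested for any gene.

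The stem-loop was found in a much larger share of replication-dependent genes than of other genes. It was searched for as a 6-pair stem with a 4-letter loop of the known histone form in the 3′ UTRs of the coding GENCODE transcripts of each gene, taking the transcript with a match or, without one, the longest 3′ UTR. It was found in 44 of the 52 replication-dependent genes whose annotated 3′ UTR has at least 20 bases (84.6%), in 1 replication-independent gene, H2afx, and in 62 of 21799 other protein-coding genes (0.284%), there anywhere in the transcript. H2afx is known to make both stem-loop and polyadenylated mRNA. Of the other replication-dependent genes, 13 have a shorter annotated 3′ UTR and 2 have no coding transcript. The 8 with a 3′ UTR of that length but no match were Hist1h1a, Hist1h2bc, Hist1h2bq, Hist1h2br, Hist1h3g, Hist1h4a, Hist2h2be and Hist2h3b.

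The letters of the stem followed the histone type. The form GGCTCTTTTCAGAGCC was shared by 26 genes, namely 3 H1, 10 H2A, 8 H2B and 5 H3 genes, and by no H4 gene. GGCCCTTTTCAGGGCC was found in 7 genes, all H4, and the other 4 H4 genes held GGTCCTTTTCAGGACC or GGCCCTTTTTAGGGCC in 2 genes each. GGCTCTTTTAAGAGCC was found in 6 genes of types H1, H2B and H3, and Hist2h2ac alone held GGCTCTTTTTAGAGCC. Thus all 33 replication-dependent genes with a loop outside H4 began with GGCTC. H2afx, an H2A gene, held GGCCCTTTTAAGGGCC, whose stem has the letters of the main H4 form.

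Many replication-dependent transcripts are annotated to run on past the loop. The annotated transcript ended within 60 bases of the loop in 21 genes and ran on further in 23, in 9 of them by over 1000 bases and in Hist1h1d by 4884. The median widest cluster was 39 bp in the 21 genes, 46 bp in the 23 and 112 bp in the 9, with 3, 7 and 6 genes at 100 bp or more. The 9 genes are part of the 23 and include Hist1h1e, Hist1h2bh, Hist2h4 and Hist4h4 of the widest clusters above. H2afx ran on for 822 bases.

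Some clusters were given to more than 1 symbol, and many histone genes resemble each other. In all, 18 clusters of 7 histone genes carried a further symbol, and 5 of those genes had no other cluster. Hist3h2a shared all 5 of its clusters with Trim17, Hist2h2ac all 4 with Gm15444, and Hist1h3c, an H3 gene with a widest cluster of 70 bp, all 3 with Gm11336. Hist1h2be, an H2B gene whose widest cluster spanned 109 bp, shared its 5 clusters with Gm11398. It shared 2 of them, the widest included, also with Hist1h1e. The widest cluster of Hist1h2be lay 267 bp downstream of the widest one of Hist1h1e. In the counts at 100 bp or more it entered for Hist1h2be as an H2B gene, a Hist1 gene and a transcript running on past the loop. Hist2h2aa1 shared 1 cluster with Hist2h3c1. Of all 30-base windows of a transcript, a median of 59.4% also occurred in another gene for replication-dependent genes and 13.9% for replication-independent genes. The median was 83.0% for replication-dependent H2A and 4.01% for H1. The other gene could be of any kind. Counting histone genes alone left many replication-dependent shares unchanged. It lowered that of Hist2h3c1 from 100% to 35.5% and that of Hist3h2a from 32.1% to 3.5%. For H2afv, H2afy2, H2afz and H3f3b it left 0%. For Hist1h2bq and Hist1h2br, with clusters of 6 and 4 bp, 1225 of 1225 and 1225 of 1227 windows also occurred in another gene, in the transcripts compared, of 1254 and 1256 bases. How tags were assigned between such copies was not tested.

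Of the genes of histone metabolism and of proliferation, most had a widest cluster of at least 100 bp, a width reached in 56.2% of genes other than the histone genes, whose median was 110 bp. All 11 genes of histone mRNA processing and transcription had a cluster, with a median widest span of 137 bp and 8 at 100 bp or more. They included Slbp, which binds the stem-loop, at 75 bp and Npat, a coactivator of histone transcription, at 191 bp. The narrowest of the 11 was Zfp473, which acts in 3′ processing, at 2 bp. All 18 histone chaperone genes had a cluster, with a median of 160 bp and 14 at 100 bp or more. All 16 proliferation genes had one, with a median of 139 bp and 14 at 100 bp or more. Of 6 histone genes outside the rule, 4 had a cluster, with H1f0, a linker histone of differentiated cells, at 183 bp, the centromeric H3 gene Cenpa at 142 bp, H1fx at 44 bp and H1foo at 2 bp. No cluster was listed under H1fnt or Hils1.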

How the data were processed

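CAGE libraries came from total RNA of 8 facial skins, 4 lesional and 4 control. The authors deposited 1 table of tag clusters with positions, gene symbols and 8 value columns. Per the submitters' processing notes, BWA, HISAT2 and build mm9 were used; the clustering rule, its threshold, the tag length and the counting base of positions were not given in the sources used here. The 8 value columns match no sample label, so they were not used, and the planned comparison of lesional with control skin was not run.

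Distinct clusters were counted once per gene, span was end minus start, and the widest cluster of a gene (ties to the lowest start) was taken for per-gene values. Under 10 bp was called narrow and at least 100 bp broad. Reference sequences were RefSeq promoter windows (GRCm38.p6, 300 bases) and GENCODE M21 transcripts, matched by symbol. The stem-loop was sought in every coding transcript of a gene and read from the one with a match or the longest 3′ UTR. Shared windows were counted in 1 transcript per gene, which was not always the longest coding one, so both steps can use different transcripts. For Hist1h2bq and Hist1h2br it had 1254 and 1256 bases, and the coding transcripts searched for the stem-loop had 2015 and 2197. It was thus not the longest coding transcript of these genes. No coordinates were converted between builds. Calculations used Python 3.11.15, pandas 2.3.3 and numpy 2.4.6, and the counting steps were tested on simulated data. Named are all replication-independent genes, the replication-dependent genes with the 6 widest clusters or the 4 highest numbers of clusters, all H1 genes, all genes outside Hist1 and all that share clusters; pair partners, the closest and farthest pairs and genes that are exceptions to a count were named after their values were seen. The members, the lists of processing, chaperone, proliferation and other histone genes, and the motifs were chosen with earlier results of these data known.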

Additional observations from a re-analysis of the deposited data

How the results depend on the processing

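No paired analysis was possible because no value column carries the name of a sample; the planned normalization, filter, pseudocount, leave-one-out and replicate block alternatives for lesional against control skin were for that reason not run. Alternatives on widest spans, pairs, motif placement and GENCODE biotype were chosen after seeing the data. The median span of clusters depends on which clusters enter: in replication-dependent genes it was 4 bp over all, 42.5 bp over clusters of at least 10 bp and 41 bp over widest clusters, and in replication-independent genes 5, 75.5 and 133 bp. Head-to-head pairs numbered 13 at a gap of at most 400 bp, 6 at 200 bp and 13 at 1000 bp. Replication-dependent windows with TATAAA numbered 11 in place, 17 between 60 bases before the start and the start, and 33 anywhere on either strand. The median widest span moved to 33.5 bp in replication-dependent genes when shared clusters were left out, inside the 95% order-statistic interval of the median (26 to 53 bp). The other alternatives (rows in place of distinct clusters, 1 symbol only, protein-coding only, without H2afx, TATAA) stayed within such intervals or within 1.5 times the count. Depth per cluster was not analysed.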
